A study of Mus musculus with 12 samples.

Results

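Class I tripartite motif (TRIM) proteins are ubiquitin ligases. Of the 6 genes of the class in the mouse, Trim9, Trim36, Trim46 and Trim67 are described here in bulk RNA-seq of retina, with the remaining class members, Mid1 and Mid2, beside them. The 4 genes were found by Entrez ID among the 27179 gene IDs of the count files, and all 4 were among the 16475 genes that passed the filter on low counts. Trim67 was chosen by its measured level, which was lower in 12-month knockout retina; the other 3 were taken for belonging to the same class. What selected Trim67 is given as a description, with no test. Retinas came from 4 groups of 3 libraries each: glia-specific ABCA1 knockout (KO) mice at 12 months, control mice at 12 months, KO mice at 3 months and control mice at 3 months. The promoter that drove the deletion, the genotype of the controls, the strain and the sex are not stated in the labels or elsewhere in the sources. Whether each library is a different animal is also unstated, so p-values measure only the spread between these libraries, which may be technical.

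A class I TRIM protein carries a RING domain that passes on ubiquitin, B-box domains, a coiled coil and a COS box that binds microtubules, followed by a fibronectin type III and a SPRY domain. TRIM9 and TRIM67 are close paralogs of neurons that bind DCC, the receptor through which growing axons respond to netrin-1. In mouse cortical neurons TRIM9 promotes the ubiquitination of VASP, an actin polymerase of growth cone filopodia, and TRIM67 opposes it. TRIM9 also binds SNAP25, a protein of the vesicle fusion machinery. TRIM46 bundles parallel microtubules at the axon initial segment, the stretch of axon where action potentials begin. TRIM36 is a microtubule-associated ligase known from the sperm acrosome of the mouse and from axis formation in Xenopus embryos. MID1 is the ligase mutated in X-linked Opitz syndrome, and MID2 is its paralog.

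Total counts per library lay between 29027099 and 30438026, and 18541 to 19144 genes had a count. Counts divided between replicates differed most for replicate 1 of 12-month KO retina, at 20.5 and 23.6 (chi-square per degree of freedom against its replicates), and replicate 2 of 3-month control retina, at 40.7 and 39.7; all other pairs lay between 3.45 and 8.91. Abca1, the targeted lipid transporter, was not lower in KO libraries: it averaged 36.3 ± 7.91 CPM in 12-month KO retina against 30.8 ± 2.66 CPM in 12-month control retina, and 26.3 ± 1.78 CPM in 3-month KO retina against 22.7 ± 3.34 CPM in 3-month control retina (SD, n = 3 each). The adjusted p was 0.65 at 12 months and 0.7 at 3 months (edgeR quasi-likelihood test). Which part of the gene is deleted is not stated in the sources, so whole-gene counts do not check the KO labels. Xist, the RNA of the inactive X chromosome, stood at 52.3 to 85.5 CPM in 12-month KO libraries, against 0.167 to 0.203 CPM in 12-month control libraries, 0.0686 to 0.609 CPM in 3-month KO libraries and 0.201 to 0.272 CPM in 3-month control libraries. The Y-linked Ddx3y did not separate in the same way, at 33.7 to 45.4 CPM in 12-month KO retina and 30.6 to 38.2 CPM in 12-month control retina.

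All 4 genes were well measured. Levels are given as CPM, each gene's share of the library's counts scaled to a common depth with TMM factors, and each gene had at least 454 counts in every library. On the GRCm38 build, Trim67 (Entrez 330863) spans chr8:124791317-124834713 on the plus strand, with an exonic length of 8744 bases. Trim9 (94090) spans chr12:70244533-70347869 on the minus strand, with 14203 exonic bases. Trim46 (360213) spans chr3:89234169-89246358 on the minus strand, with 3792 exonic bases, and overlaps Krtcap2 on the opposite strand. Trim36 (28105) lies on the minus strand of chromosome 18 and has 4933 exonic bases. How the counting treated strand is not stated in the sources, so reads of overlapping or antisense genes may be shared: Gm16163 overlaps Trim67, Gm48747 and Gm32151 lie antisense to Trim9, and 1700018A14Rik lies antisense to Trim36.

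Trim67, the brake on TRIM9-dependent VASP ubiquitination, was lower in aged KO retina than in any other group. Its level was 69.3, 90.0 and 90.7 CPM in 12-month KO retina, against 120.5, 120.7 and 125.0 CPM in 12-month control retina. At 3 months it was 121.5, 118.0 and 122.7 CPM in KO retina against 113.7, 113.5 and 110.3 CPM in control retina. The 3 libraries of 12-month KO retina lay below all 9 others, and replicate 1 lay lowest. In raw counts the same libraries held 2098, 2675 and 2670 counts in 12-month KO retina, against 3610, 3588 and 3702 counts in 12-month control retina. Group means were 83.3 ± 12.1 CPM in 12-month KO retina and 122 ± 2.52 CPM in 12-month control retina (SD, n = 3 each). The log2 fold change was -0.55 ± 0.085 (SE; 95% interval -0.73 to -0.37), a change of -31.7%. Since this difference selected the gene, no test is attached to it. Of all 16475 genes, 35 (0.212%) passed an adjusted p of 0.05 in this contrast (edgeR quasi-likelihood test), which is the background for the other genes below.

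Between 3 and 12 months, Trim67 was lower with age in KO retina and slightly higher in control retina. Its log2 change was -0.54 ± 0.085 in KO retina (83.3 ± 12.1 against 121 ± 2.43 CPM) and 0.12 ± 0.084 in control retina (122 ± 2.52 against 112 ± 1.9 CPM; SE for the changes, SD for the levels). Those contrasts contain the libraries that selected the gene and are likewise given untested. The comparison that did not use those libraries is KO against control at 3 months. There the log2 fold change was 0.10 ± 0.084 (95% interval -0.07 to 0.28), the adjusted p was 0.74 (edgeR quasi-likelihood test), and an exact two-sided permutation test over the 6 libraries gave p = 0.1, the smallest value that 3 against 3 allows. All 3 KO libraries lay above all 3 control libraries at 3 months, by 7.33% in the fit. The libraries of this contrast also differed in markers of other tissues: lens markers summed to 9.74 to 11.7 CPM in 3-month KO retina against 45.9 to 4840 CPM in 3-month control retina, and skeletal muscle markers to 7.05 to 11.8 CPM in 3-month KO retina against 77.2 to 88.1 CPM in 3-month control retina. Their part in the Trim67 values was not tested. Without replicate 2 of the 3-month controls the log2 fold change was 0.109. That fit cannot decide the question, since every 3-month control library had at least 77.2 CPM of muscle markers and 45.9 CPM of lens markers. In that contrast 37 genes (0.225%) passed, and none of the 4 class I genes was among them.

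**Figure D1:**
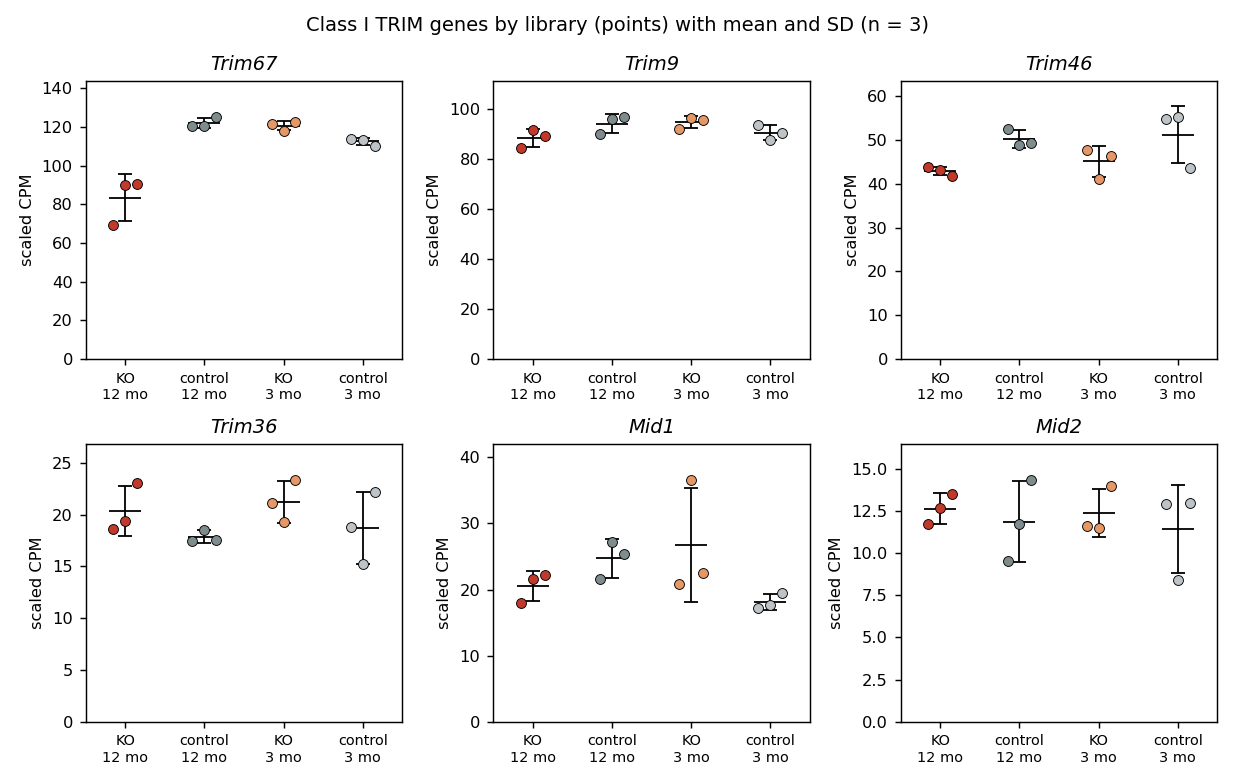
Scaled CPM of the class I TRIM genes in each of the 12 libraries (points), with the mean and SD of each group of 3; each panel has its own vertical axis starting at 0. The 12-month KO libraries hold the lowest Trim67 levels, 69.3 to 90.7 CPM, while Trim9 lies between 84.3 and 96.6 CPM in all libraries.

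Several other measures moved with the Trim67 difference at 12 months. Summed marker levels of bipolar cells were 1840 to 1970 CPM in KO retina against 2150 to 2180 CPM in control retina, a difference of -11.2%. Ganglion cell markers summed to 905 to 954 CPM in KO retina against 986 to 1030 CPM in control retina, a difference of -7.38%. Amacrine cell markers lay at 1580 to 1600 CPM in KO retina against 1610 to 1670 CPM in control retina, a difference of -3.13%. These sums of bipolar, ganglion and amacrine cell markers did not overlap between the groups. Horizontal cell markers overlapped, at 133 to 170 CPM in KO retina against 135 to 157 CPM in control retina, a difference of 6.25%. Cone markers also overlapped, at 946 to 1050 CPM in KO retina against 988 to 1060 CPM in control retina. Müller glia markers were 3910 to 3970 CPM in KO retina against 4040 to 4180 CPM in control retina, a difference of -4.01%, while rod markers overlapped, at 46700 to 48800 CPM in KO retina against 47600 to 49500 CPM in control retina. Astrocyte markers summed to 45.2 to 46.8 CPM in KO retina against 36.9 to 40.6 CPM in control retina, 17.8% higher. At 3 months they summed to 44.6 to 47.1 CPM in KO retina and 44.8 to 49.8 CPM in control retina. It was thus the 12-month control group that stood apart from the others. Microglia markers also did not overlap, at 62.5 to 67 CPM in KO retina against 60 to 61.4 CPM in control retina, while pigment epithelium markers did, at 89.6 to 131 CPM in KO retina against 108 to 160 CPM in control retina (a difference of -17.9%). Singly, the 10 bipolar markers had log2 fold changes of -0.33 to -0.04 and the 10 ganglion cell markers -0.15 to 0.07. Amacrine cell markers (10) lay between -0.17 and 0.11, Müller glia markers (7) between -0.12 and 0.03. Microglia markers (8) lay between -0.21 and 0.41, astrocyte markers (5) between 0.02 and 0.37. No marker of the cell types named here passed the test at 12 months, where 0.212% of all genes did (edgeR). The share of all genes or sums that separate 3 against 3 libraries was not counted. The part of these values, and of Xist, in the level of Trim67 was not tested. Xist stood at 52.3 to 85.5 CPM in the 12-month KO libraries and at most at 0.609 CPM in the other groups. What goes with Xist therefore cannot be told apart from what goes with the 12-month KO group. In bulk retina, fewer cells that express a gene and less RNA per cell cannot be told apart.

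Trim9, the paralog of Trim67 that binds the same receptor, was nearer between the groups. It stood at 84.3, 91.4 and 89.3 CPM in 12-month KO retina, against 89.8, 95.9 and 96.6 CPM in 12-month control retina. At 3 months the values were 92.0, 96.4 and 95.6 CPM in KO retina, against 93.6, 87.5 and 90.4 CPM in control retina. The groups overlapped at both ages. The log2 fold change between KO and control was -0.09 ± 0.067 at 12 months (95% interval -0.23 to 0.05, adjusted p = 0.72, edgeR) and 0.06 at 3 months (95% interval -0.08 to 0.21, adjusted p = 0.79, edgeR). The Trim67 value of -0.55 lies outside this 12-month interval, but that value selected Trim67. Whether Trim9 differed from Trim67 was therefore not tested. Between ages, all 3 libraries of 12-month KO retina lay below all 3 of 3-month KO retina, with a log2 change of -0.10 (95% interval -0.24 to 0.04, adjusted p = 0.59, edgeR), while in control retina it was 0.06 with overlapping values.

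Trim46, the organiser of axonal microtubules at the initial segment, did not pass the test at either age. Its level was 43.8, 43.2 and 41.8 CPM in 12-month KO retina against 52.6, 48.8 and 49.4 CPM in 12-month control retina. No KO library reached a control library at that age. The log2 fold change was -0.23 ± 0.091 (95% interval -0.42 to -0.04), a difference of -14.5%, with an adjusted p of 0.5 and an unadjusted p of 0.022 (edgeR); the exact permutation test gave 0.1. At 3 months it was 47.8, 41.2 and 46.4 CPM in KO retina and 54.9, 55.2 and 43.6 CPM in control retina, and replicate 3 of the controls lay among the KO values. The log2 fold change there was -0.18 ± 0.091 (95% interval -0.37 to 0.01, adjusted p = 0.68, edgeR). Set against each other, the effects at 12 and 3 months differed by -0.04 ± 0.13 on the log2 scale (SE, adjusted p = 1, edgeR).

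Trim36 was the least abundant of the 4. It had 18.6, 19.4 and 23.1 CPM in 12-month KO retina against 17.5, 18.6 and 17.5 CPM in 12-month control retina. At 3 months it had 21.1, 19.3 and 23.3 CPM in KO retina and 18.8, 15.2 and 22.2 CPM in control retina. At 12 months all 3 KO libraries lay above all 3 control libraries, the closest at 18.6 CPM in KO against 18.56 CPM in control retina (exact permutation p = 0.1), and at 3 months the groups overlapped. The log2 fold change was 0.19 ± 0.13 at 12 months (95% interval -0.08 to 0.46, adjusted p = 0.69, edgeR) and 0.18 at 3 months (95% interval -0.08 to 0.45, adjusted p = 0.71, edgeR). Its changes with age were -0.06 in KO retina and -0.07 in control retina, with adjusted p of 0.91 and 0.9 (edgeR).

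Across the design, then, Trim9, Trim36 and Trim46 gave no call (edgeR quasi-likelihood test): 0 of 3 in KO against control at 12 months, where 1 of 3 had an unadjusted p under 0.05, and 0 of 3 at 3 months, where 0 of 3 did. Over all genes, 8.7% had an unadjusted p under 0.05 in the contrast at 12 months and 7.5% at 3 months. With age they gave 0 of 3 in KO retina, where 2.37% of all genes passed, 0 of 3 in control retina, where 2.11% passed, and 0 of 3 in the difference between the KO effects at the 2 ages, where 0.127% passed; 0 of 3 had an unadjusted p under 0.05 in each of these, against 13.3%, 12.5% and 4.33% of all genes. DESeq2 and limma-voom also called 0 of 3 in all 5 comparisons. At those background shares, 0 calls among 3 genes says little of the class.

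The MID genes had no calls either. Mid1 was 17.9, 21.6 and 22.2 CPM in 12-month KO retina against 21.5, 27.3 and 25.3 CPM in 12-month control retina. At 3 months it was 20.9, 36.6 and 22.6 CPM in KO retina against 17.2, 17.6 and 19.5 CPM in control retina. All KO libraries were above all control libraries at 3 months, but replicate 2 of the KO retinas stood far above the other 2. The log2 fold change was 0.56 ± 0.17 (95% interval 0.19 to 0.92) with an adjusted p of 0.57 and an unadjusted p of 0.0053 (edgeR), and 0.262 without that library. At 12 months it was -0.27 ± 0.17 (adjusted p = 0.68, edgeR), with overlapping groups. The effects at 12 and 3 months differed by -0.82 ± 0.24 on the log2 scale (95% interval -1.34 to -0.31), with an unadjusted p of 0.0038 and an adjusted p of 0.71 (edgeR), and by -0.529 without that library. Mid2 averaged 12.6 ± 0.911 CPM in 12-month KO retina against 11.9 ± 2.42 CPM in 12-month control retina, and 12.4 ± 1.41 CPM in 3-month KO retina against 11.4 ± 2.62 CPM in 3-month control retina (SD, n = 3 each), with adjusted p of 0.91 and 0.85 (edgeR).

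**Figure D2:**
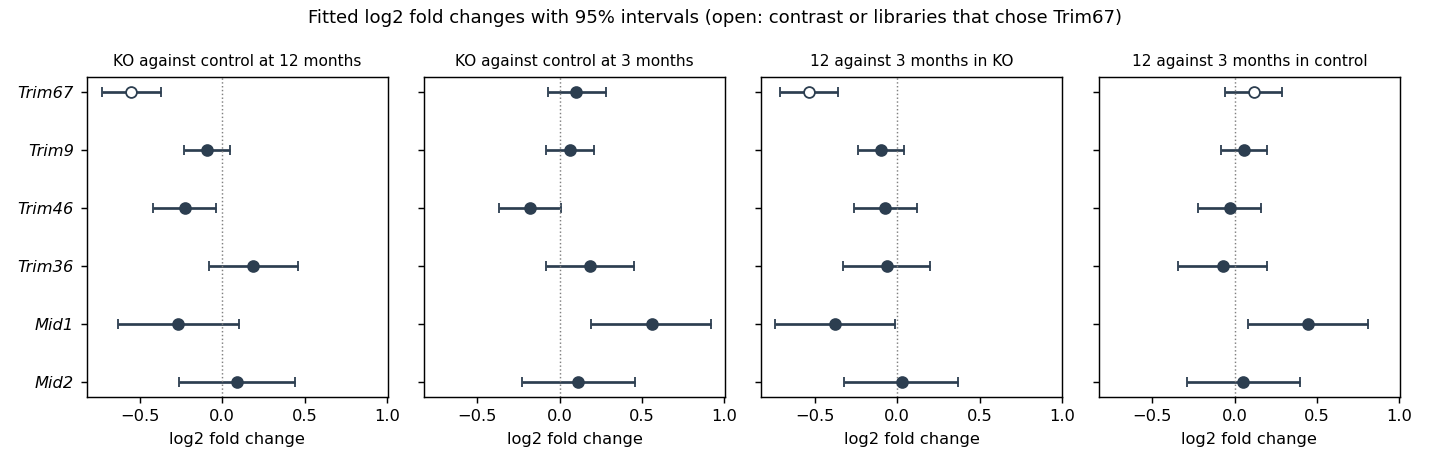
Fitted log2 fold changes with 95% intervals for the class I TRIM genes, 1 panel for each contrast; open symbols mark the contrasts of Trim67 that contain the libraries by which it was selected. Trim67 lies at -0.55 in 12-month KO against control retina and at 0.10 in the same contrast at 3 months, and the intervals of Trim9 and Trim36 include 0 in every panel.

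Levels of different genes can be compared only per length. In CPM per kilobase of exon, Trim67 had 9.53 ± 1.4 in 12-month KO retina, 14 ± 0.29 in 12-month control retina, 13.8 ± 0.28 in 3-month KO retina and 12.9 ± 0.22 in 3-month control retina (SD, n = 3 each). Trim46 had 11.3 ± 0.27, 13.3 ± 0.54, 11.9 ± 0.93 and 13.5 ± 1.7 CPM per kilobase in the groups in that order. Both thus led the class, and which stood first depended on the group. In 12-month KO retina Trim67 lay at 7.93 to 10.4 CPM per kilobase, below Trim46 at 11 to 11.6. In 3-month KO retina it lay at 13.5 to 14 CPM per kilobase, above Trim46 at 10.9 to 12.6, and in both control groups the genes overlapped. Trim9 followed, with group means of 6.22 to 6.67 CPM per kilobase, then Trim36 with 3.62 to 4.31, Mid1 with 2.7 to 3.97 and Mid2 with 1.41 to 1.56. Trim36 and Mid1 did not overlap in 12-month KO and 3-month control retina but did in the other 2 groups. Among 53 tested genes of the TRIM and class I names, Trim67 ranked 10th by mean CPM per kilobase, Trim46 11th, Trim9 15th, Trim36 20th, Mid1 22nd and Mid2 30th.

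Ratios within a library do not depend on how libraries are scaled. The ratio of Trim67 to Trim9 per kilobase was 1.34, 1.6 and 1.65 in 12-month KO retina, against 2.18, 2.04 and 2.1 in 12-month control retina. At 3 months it was 2.15, 1.99 and 2.08 in KO retina, against 1.97, 2.11 and 1.98 in control retina. Outside 12-month KO retina this ratio lay between 1.97 and 2.18 in all 9 libraries. The 12-month Trim67 levels in the ratio are those that selected the gene. Its lower value in 12-month KO retina is therefore a description, not a separate result, and was not tested. Trim46 to Trim9 averaged 1.82 ± 0.11 in 12-month KO retina against 2 ± 0.16 in 12-month control retina, and 1.79 ± 0.18 in 3-month KO retina against 2.12 ± 0.28 in 3-month control retina. Trim36 to Trim9 averaged 0.663 ± 0.07 in 12-month KO retina against 0.546 ± 0.021 in 12-month control retina, and 0.646 ± 0.065 against 0.595 ± 0.1 in 3-month KO and control retina (SD, n = 3 each).

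**Figure D3:**
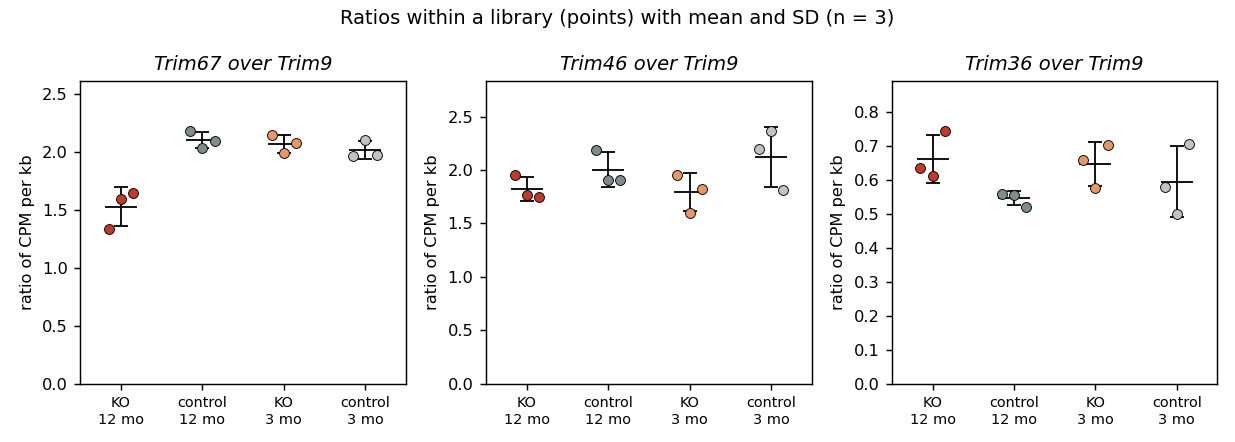
Ratio of each gene's CPM per kilobase to that of Trim9 within a library (points), with the mean and SD of each group of 3; each vertical axis starts at 0. The ratio of Trim67 to Trim9 averages 1.53 in 12-month KO retina and 2.02 to 2.11 in the other groups. The 12-month Trim67 levels in it selected the gene.

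The libraries of a group also differed among themselves. Measured as deviations of log2 CPM from the group mean over the 12 libraries, Trim67 varied most like Cds2 (Pearson r = 0.99), Heg1 (0.989), Rad54l2 (0.989), Gramd1b (0.988) and Tnrc18 (0.986), out of 14085 named genes with a mean of at least 1 CPM. Much of that likeness rested on replicate 1 of 12-month KO retina, where Trim67 deviated by -0.25 against at most 0.13 in any other library. Over the other 11 libraries r was 0.80 for Cds2, 0.81 for Heg1, 0.92 for Rad54l2, 0.84 for Gramd1b and 0.69 for Tnrc18. In KO against control retina at 12 months those 5 genes had log2 fold changes of -0.19 to -0.01, with adjusted p of 0.67 to 0.99 (edgeR). Trim9 varied most like Ankzf1 (0.944) and Hmcn1 (0.941), Trim36 like Pde7b (0.956) and Glt28d2 (0.949), and Trim46 like Adra2b (0.929) and Pak4 (0.91). Between the class members themselves the correlation was 0.57 for Trim9 with Trim67, 0.28 for Trim36 with Trim67 and 0.022 for Trim46 with Trim67. All these values describe 12 libraries that also share, gene by gene, the depth and composition of each library, and carry no p.

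No gene beside Trim67 passed the test. Within 500 kb of it 15 other genes were tested, and 0 were called in KO against control at either age (edgeR). Over all genes 0.212% were called at 12 months and 0.225% at 3 months, so 0 of 15 is near the background. The 14 of them with at least 1 CPM had log2 fold changes of -0.39 to 0.11 at 12 months. Their median was -0.09, against -0.002 over all genes. Lowest was 2310022B05Rik, 128 kb before Trim67, with -0.39 ± 0.084 and an adjusted p of 0.069 (edgeR). Ttc13 (69.3 kb before) had -0.29 ± 0.079 and Egln1, an oxygen-sensing prolyl hydroxylase (73.9 kb after), -0.28 ± 0.083, with adjusted p of 0.2 and 0.24 (edgeR). Closest to the gene, 2810004N23Rik at 4.64 kb after its end had 0.11, and Gnpat at 28.3 kb, an enzyme of ether lipid synthesis, had 0.06. Around Trim9, Trim36 and Trim46, 13, 7 and 39 genes were tested and 0 were called in either KO contrast, also near the background. The median at 12 months of those with at least 1 CPM was 0.02, 0.04 and -0.08 in that order. The shift around Trim46 was thus close to that around Trim67. Krtcap2, which overlaps Trim46, had a log2 fold change of 0.11 ± 0.12 at 12 months.

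**Figure D4:**
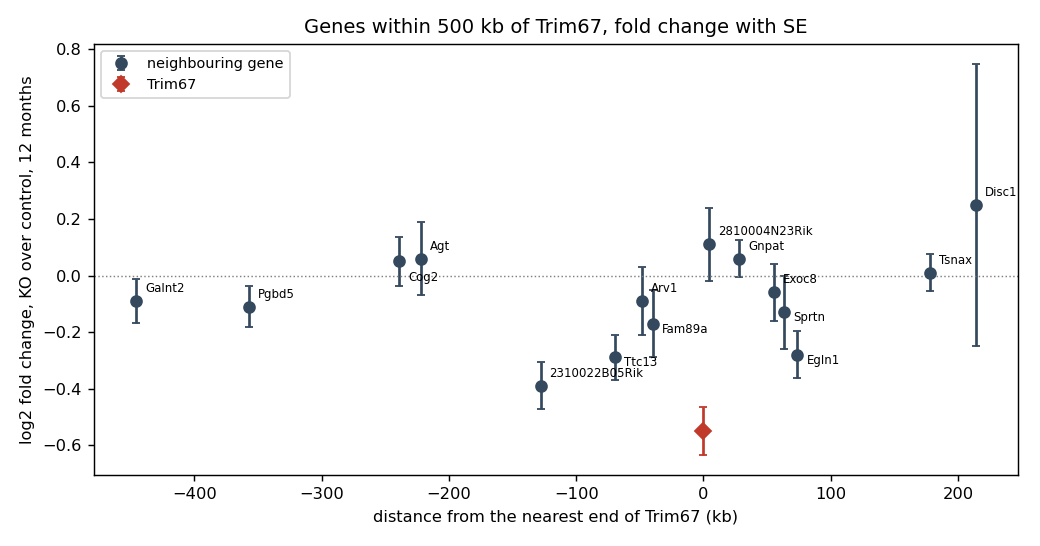
Log2 fold change with SE of KO against control retina at 12 months for tested genes within 500 kb of Trim67, by distance in kb from its nearest end (negative, before the gene). Trim67 lies lowest, at -0.55, and its neighbours with at least 1 CPM lie between -0.39 and 0.11.

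None of the listed netrin ligands and receptors passed the test. Of 13 netrin ligands and receptors, all tested, 0 were called in any of the 5 comparisons by edgeR, DESeq2 or limma-voom; 2 had an unadjusted p under 0.05 at 12 months and 1 at 3 months, against 8.7% and 7.5% of all genes. At called shares of 0.212% and 0.225% over all genes, 0 calls among 13 is near the background. Their median log2 fold change was -0.081 at 12 months and -0.086 at 3 months, against -0.002 and 0.0018 over all genes. Ntng2, a membrane-anchored netrin G ligand and the most abundant of the list, averaged 308 ± 19.7 CPM in 12-month KO retina against 326 ± 16.8 CPM in 12-month control retina. Unc5a, a repulsive netrin receptor, averaged 123 ± 4.19 CPM in 12-month KO retina against 141 ± 6.91 CPM in 12-month control retina (log2 fold change -0.20 ± 0.07, adjusted p = 0.38, edgeR). Dcc itself, chosen after its values were seen, averaged 13.1 ± 2.47 CPM in 12-month KO retina against 12.9 ± 1.24 CPM in 12-month control retina (0.02 ± 0.14, adjusted p = 0.99, edgeR; SD and n = 3 for levels).

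Of 12 genes that encode reported TRIM9 and TRIM67 partners or the actin and exocytosis proteins beside them, 0 were called in any comparison by any of the 3 tools, with an unadjusted p under 0.05 for 2 at 12 months and 0 at 3 months (edgeR; 8.7% and 7.5% of all genes). Vamp2, a vesicle SNARE, averaged 941 ± 30.6 CPM in 12-month KO retina against 944 ± 34.2 CPM in 12-month control retina. Snap25, its partner on the plasma membrane, averaged 889 ± 79.6 CPM in 12-month KO retina against 874 ± 18.3 CPM in 12-month control retina. Vasp, again chosen after its values were seen, averaged 25.9 ± 0.947 CPM in 12-month KO retina against 24.9 ± 0.783 CPM in 12-month control retina (log2 fold change 0.06 ± 0.089, adjusted p = 0.88, edgeR; SD and n = 3 for levels). Protein and ubiquitination were not measured.

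Genes of the axon initial segment, where TRIM46 works, gave 0 calls of 15 in each of the 5 comparisons (edgeR), with 0 at an unadjusted p under 0.05 at 12 months and 1 at 3 months (8.7% and 7.5% of all genes); limma-voom called 1, Scn1a, between ages in KO retina. Over all genes edgeR called 0.127% to 2.37% in the 5 comparisons, and limma-voom called 1319 genes with age in KO retina. The calls among these 15 genes are thus near the background. The median log2 fold change of the 15 genes was -0.05 at 12 months. Mtcl1, a microtubule crosslinker, had 435, 606 and 593 CPM in 12-month KO retina and averaged 575 ± 37.4 CPM in 12-month control retina. Nfasc, the cell adhesion molecule neurofascin, had 398, 525 and 527 CPM in 12-month KO retina and averaged 539 ± 30.6 CPM in 12-month control retina (SD, n = 3). Replicate 1 was the low library for both, as for Trim67.

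Among the other genes named Trim, edgeR made calls in the contrasts of age. None of the 47 other tested Trim genes was called in KO against control at 12 months or at 3 months (edgeR), where 4 and 6 had an unadjusted p under 0.05 (8.7% and 7.5% of all genes). DESeq2 and limma-voom each called Trim17 at 12 months, and limma-voom called Trim54 at 3 months. Over all genes DESeq2 made 127 calls and limma-voom 186 at 12 months, and limma-voom made 79 at 3 months. With age, 2 were called in KO retina and 3 in control retina (edgeR), against 2.37% and 2.11% of all genes. Trim17 is a ligase linked to the death of neurons in mouse cell culture. It rose with age in both genotypes, to 39.8 ± 4.76 CPM at 12 months against 22.4 ± 2.11 CPM at 3 months in KO retina (log2 0.83 ± 0.1, adjusted p = 7.5e-05, edgeR) and to 53.8 ± 4.97 CPM at 12 months against 22.6 ± 0.513 CPM at 3 months in control retina (1.25 ± 0.1, adjusted p = 1.9e-07, edgeR). Both calls held under all 22 alternatives. At 12 months its log2 fold change in KO against control retina was -0.44 ± 0.1, with an adjusted p of 0.088 (edgeR). Trim3, a ligase of postsynaptic sites, fell with age in KO retina, to 132 ± 5.68 CPM at 12 months against 177 ± 4.75 CPM at 3 months (log2 -0.43 ± 0.079, adjusted p = 0.0038, edgeR). In control retina its log2 change with age was -0.18, with an adjusted p of 0.34 and an unadjusted p of 0.035 (edgeR). The changes in KO and control retina differed by -0.25 ± 0.11 (SE), which did not pass (edgeR). Trim47 fell with age in control retina, to 4.66 ± 0.0445 CPM at 12 months against 7.81 ± 1.94 CPM at 3 months (adjusted p = 0.024, edgeR; SD, n = 3 each). That call was lost without 3-month control replicate 2 (log2 -0.523 against -0.746 in the full fit, adjusted p = 0.11) and without any 1 of the 12-month control libraries (adjusted p of 0.08 to 0.1, edgeR). Of 5 tested genes with a COS box outside the class, edgeR called 1, the muscle gene Trim54, which fell with age in control retina to 0.0557 ± 0.0695 CPM at 12 months against 0.572 ± 0.0847 CPM at 3 months (adjusted p = 0.046, edgeR). It rested on few counts, and 13 of 19 alternatives ended the call, with adjusted p up to 0.21. limma-voom also called Trim54 in KO against control at 3 months and Cmya5, another muscle gene, with age in KO retina, where edgeR gave adjusted p of 0.085 and 0.13. Over all genes limma-voom made 79 and 1319 calls in those contrasts. Skeletal muscle markers summed to 77.2 to 88.1 CPM in 3-month control libraries and 6.45 to 11.8 CPM in the other groups, and their part in the Trim54 values was not tested.

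**Figure D5:**
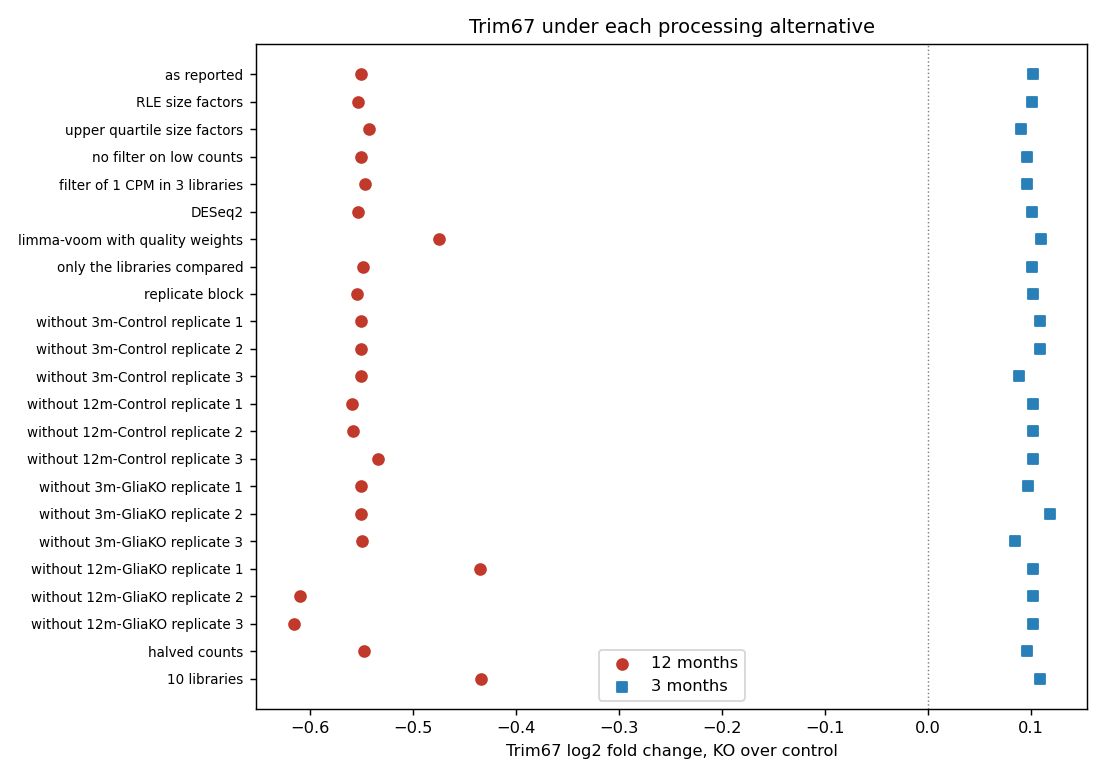
Trim67 log2 fold change of KO over control retina under each processing alternative, at 12 months and at 3 months. Values lie between -0.616 and -0.434 at 12 months and between 0.084 and 0.118 at 3 months.

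The size of the Trim67 difference at 12 months depended on 1 library. Without replicate 1 of 12-month KO retina the log2 fold change was -0.435, and over all alternatives it lay between -0.616 and -0.434. In the authors' deposited table for 12-month KO against control retina, the log2 fold change of Trim67 was -0.44, with an SE of 0.082. How its fold changes were estimated is not stated, so that value and -0.435 may not be like measures. For Trim9, Trim36 and Trim46 the fit above gave -0.09, 0.19 and -0.23, each larger in size than the deposited value. The authors' deposited table gave -0.08 for Trim9 (adjusted p = 0.87), 0.13 for Trim36 (adjusted p = 0.78) and -0.19 for Trim46 (adjusted p = 0.37), and 0.636% of its 17139 genes with an adjusted p passed 0.05.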

How the data were processed

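Bulk RNA was sequenced from 12 mouse retina samples, 3 in each of 4 groups of genotype and age given by the sample titles. Per the submitters' processing notes, HISAT2 2.1.0, featureCounts 1.6.4, DESeq2 1.22.1 and the GRCm38 build were used; no source used here states their roles or settings. The deposited files hold raw counts per Entrez gene. Low counts were even more often than odd (60.7% to 70.2% of values from 1 to 20), which 2 counts for each read pair would give. The authors' deposited table for 12 months holds mean normalized counts (signal), log2 fold changes with SE, a test score and p-values.

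Genes were tested with edgeR 4.0.16 (TMM, filterByExpr, robust quasi-likelihood, 1 coefficient for each group over 12 libraries, common biological coefficient of variation 0.11) and Benjamini-Hochberg adjustment over 16475 genes. Exact permutation tests were two-sided. Exonic lengths came from GENCODE vM21, and 25275 IDs were named from RefSeq. Named genes are the class members, Abca1, list members that passed (otherwise the 2 most abundant), other Trim genes that passed, and the genes most like each member; exceptions are stated. The members and lists were chosen with earlier results of these data known. Same-numbered replicates did not vary together (correlations -0.08 to 0.14). Alternatives were other normalizations, filters and tools (DESeq2 1.42.0, limma-voom), a replicate block, halved counts (not planned beforehand) and leaving out each library.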

Additional observations from a re-analysis of the deposited data

Results flagged for a closer look

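The KO libraries lay on opposite sides of the controls for Trim67 at the 2 ages: all 12-month KO libraries lay below all 12-month control libraries, and all 3-month KO libraries lay above all 3-month control libraries. The difference between the effects was -0.65 ± 0.12 on the log2 scale (SE; -0.55 at 12 months, 0.10 at 3 months). At 3 months the 95% interval, -0.07 to 0.28, included 0, and the adjusted p was 0.74 (edgeR quasi-likelihood test). Complete separation of 3 against 3 libraries gives an exact two-sided permutation p of 0.1. The share of all genes separated in this way was not counted. The difference between the effects was not tested, because the 12-month libraries selected the gene. It was -0.537 without replicate 1 of 12-month KO retina.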

How the results depend on the processing

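In KO against control at 12 months (35 calls) there were 64 without the low-count filter, 127 with DESeq2, 186 with limma-voom and 13 to 166 with 1 library left out (166 without 3-month control replicate 2, 23 and 13 without 12-month control replicate 1 and 2, 15 without 12-month KO replicate 3). At 3 months (37 calls) there were 63 with DESeq2, 79 with limma-voom and 21 to 41 with 1 library left out (21 without 3-month KO replicate 3). With age in KO retina (390 calls) there were 596 with DESeq2, 1319 with limma-voom and 187 to 717 with 1 library left out (717 without 3-month control replicate 2; 217, 190 and 187 without 3-month KO replicate 1, 2 and 3; 228 without 12-month KO replicate 2). With age in control retina (347 calls) there were 583 with DESeq2, 773 with limma-voom, 198 with only the libraries compared and 201 to 479 with 1 library left out (201 without 12-month control replicate 2). For the difference of KO effects (21 calls) DESeq2 gave 41 and limma-voom 50. Without both libraries that stand apart, an alternative chosen after seeing the data, the 5 counts were 421, 58, 1069, 1040 and 50. The replicate block gave 40, 38, 368, 317 and 22 calls, with Trim67 at -0.555 at 12 months and 0.102 at 3 months, and changed no call of a tested class I value. The same-numbered samples share only a number.

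Of 567 alternative values for the tested comparisons of the class I genes, 537 kept direction and side of the threshold, 30 changed sign and 0 gained or lost a call. These values include fits without a library outside the contrast, which can hardly move its fold change. Trim9 at 12 months, for example, stayed at -0.092 to -0.09 with any 3-month library left out. The count of 537 therefore overstates how far the values were tried. The Trim67 difference, untested, was -0.537 without 12-month KO replicate 1. Sign changes with 1 library left out were Trim36 with age in KO (-0.161 to 0.013) and in control retina (-0.2 to 0.068) and in the difference (-0.131 to 0.137), Trim46 with age in control retina (-0.132 to 0.028) and in the difference (-0.106 to 0.059), and Mid2 in KO against control at 12 months (-0.046 to 0.249) and 3 months (-0.065 to 0.215), with age in KO (-0.023 to 0.129) and control retina (-0.126 to 0.189) and in the difference (-0.161 to 0.155). limma-voom reversed Trim46 with age in control retina (0.04) and Mid2 at 3 months (-0.043), with age in control retina (-0.07) and in the difference (0.138). Without both libraries the same 4 values were 0.029, -0.065, -0.126 and 0.207. Among other Trim genes, the age calls of Trim17 and Trim3 held under all 22 alternatives, while that of Trim47 was lost under 6 and that of Trim54 under 13. The block turned the Trim36 difference to -0.008. The causes were not tested. Mid2, with 251 to 425 counts in a library, was the least deeply measured of the class.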
